A study of Mus musculus with 9 samples.

Results

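The integrated stress response genes around ATF4 are the 10 genes Atf4, Ddit3, Chac1, Trib3, Asns, Ppp1r15a, Sesn2, Fgf21, Gdf15 and Cebpb, taken as a list of names from one pathway. The list was chosen with earlier results of these data known. Its genes were found by their symbols among the 55401 genes of the deposited count table. All 10 were present, and all 10 passed the filter on low counts, as did 16762 genes in all. The name Ddit3 stands on a second row as well, which is described with that gene.

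RNA-seq counts were available for 9 cultures of primary neonatal mouse ventricular myocytes (NMVMs), heart muscle cells isolated from wild-type C57BL/6J mice at 1 day of age. The control group (n = 3) stayed at normal oxygen in complete DMEM with 10% FBS. The hypoxia group (n = 3) spent 6 h in a sealed AnaeroPack chamber in DMEM without glucose or serum. The hypoxia + rSRGN group (n = 3) was treated in the same way with recombinant serglycin, a secreted proteoglycan core protein, added at a dose that the labels do not give. Low oxygen, loss of glucose and loss of serum therefore cannot be told apart in any comparison with control, and the labels do not say whether the 3 libraries of a group came from separate isolations, so that the p-values measure the spread between these libraries, which may be technical.

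The integrated stress response starts when a kinase phosphorylates the initiation factor eIF2 on its alpha subunit. Most protein synthesis then slows, while ATF4, whose messenger carries short reading frames ahead of its coding sequence, is translated more efficiently. ATF4 pairs with other leucine zipper proteins and switches on genes of amino acid supply, redox balance, feedback and, under lasting stress, cell death, and in heart muscle it is known to answer mitochondrial and nutrient stress. RNA-seq measures the transcripts of these genes and not the phosphorylation of eIF2 or the amount of ATF4 protein.

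Because the response is known for control at the ribosome, the region before the coding sequence was read first, in 9 of the genes, from the principal consensus coding transcript with the longest 5' UTR in GENCODE release M21 (GRCm38). Atf4 lies on chr15:80255184-80257541 on the plus strand, with a 5' UTR of 594 bases and 3 upstream ATG codons. They open reading frames of 36, 3 and 59 codons, of which the last runs out of frame past the start of the coding sequence. The 30 bases around each ATG, in capitals, are shown for Atf4 and for the first ATG of Ddit3.
Atf4, 36 codons, chr15:80255292-80255321, plus strand: acttttctctcATGgggcctttaggacgat
Atf4, 3 codons, chr15:80255571-80255600, plus strand: ttgcggccaccATGgcgtattagaggcagc
Atf4, 59 codons, chr15:80255670-80256220, plus strand, across an exon junction: cggcctaagccATGgcgctcttcacgaaat
Ddit3, 34 codons, chr10:127290818-127290847, plus strand: tcgattatatcATGttgaagatgagcgggt

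Ddit3, on chr10:127290774-127296288 on the plus strand, had 2 upstream ATGs in the same reading frame. They stand 34 and 31 codons ahead of a shared stop, which lies before the coding sequence. The frame from the first ATG is also annotated as a gene of its own, the second row named Ddit3. Its 105 bases of exon all lie within Ddit3, and its count was 0 in the 9 libraries together. Any read on those bases also falls on Ddit3, so the 0 cannot be read as absence of transcripts there. Gdf15 had 4 upstream ATGs, Asns and Sesn2 had 1 each, and Chac1, Trib3, Fgf21 and Cebpb had 0. In all, 5 of the 9 genes had an upstream ATG, against 54.8% of 19400 genes read in the same way, and 1, Atf4, had a frame that overlapped the coding start, against 17.2%. All of these bases belong to 5' UTRs, in exons of protein-coding genes.

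**Figure D1:**
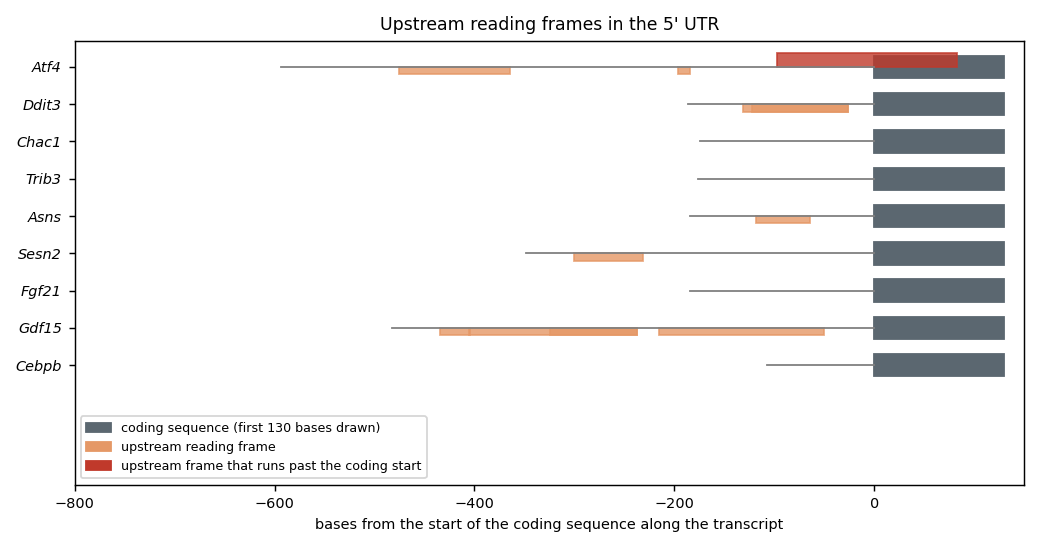
Upstream reading frames of 9 of the genes drawn to scale, with the position in bases from the start of the coding sequence on the x axis and a line for each 5' UTR. The 594-base 5' UTR of Atf4 holds a frame that runs past the coding start, and those of Chac1, Trib3, Fgf21 and Cebpb hold none.

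Promoter windows from RefSeq (GRCm38.p6), from 250 bases before to 50 bases after each start, were available for all 10 genes, with 11 windows since Gdf15 has a pair of starts. They were searched on both strands for TGATGNAAT, the composite element bound by ATF4 with a C/EBP partner. Fgf21 alone among the 10 held it, against 0.965% of 32851 promoters. The shorter core TGATGNAA, which is contained in that motif and was added after the sequences had been seen, matched in Chac1, Trib3, Asns and Fgf21, against 3.97% of promoters. The cAMP response element TGACGTCA, a palindrome, matched in Ppp1r15a, against 1.79%. The bases around these matches are shown on the strand of each gene, with the match to TGATGNAA or TGACGTCA in capitals, and for Fgf21 the whole 250 bases before the start are given.
Chac1, chr2:119351038-119351067, plus strand: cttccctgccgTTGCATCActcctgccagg
Trib3, chr2:152344028-152344057, minus strand: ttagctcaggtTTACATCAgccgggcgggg
Asns, chr6:7693214-7693243, minus strand: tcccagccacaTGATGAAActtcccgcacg
Ppp1r15a, chr7:45526262-45526291, minus strand: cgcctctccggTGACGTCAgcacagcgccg
Fgf21, chr7:45615491-45615740, minus strand: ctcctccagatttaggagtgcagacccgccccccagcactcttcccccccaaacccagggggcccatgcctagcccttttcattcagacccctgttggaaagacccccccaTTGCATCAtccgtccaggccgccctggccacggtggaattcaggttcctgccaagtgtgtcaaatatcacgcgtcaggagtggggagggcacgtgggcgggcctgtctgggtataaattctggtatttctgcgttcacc

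The hypoxia response core ACGTG matched in Ddit3, Asns, Ppp1r15a, Fgf21 and the second window of Gdf15, against 19.6% of promoters. The heat shock element GAANNTTC matched in Asns, where it overlaps the TGATGNAA match, against 7.86%. Such matches describe the letters of these windows and not the binding of a factor.

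Total counts per library lay between 21669017 and 22781557 in control, 16583985 and 18148474 in hypoxia and 16640239 and 20826701 in hypoxia + rSRGN. Levels are given as CPM, counts scaled to a common library total with TMM, and levels of different genes are compared only as CPM per kb of exon. A gene was called higher or lower at a Benjamini-Hochberg adjusted p below 0.05 in edgeR's quasi-likelihood test, adjusted over 16762 genes, with a fold change of at least 1.5. The check of the cell type showed all 20 cardiomyocyte markers expressed in every group, yet their summed level was 60414 to 73283 CPM in control, 5092 to 7991 CPM in hypoxia and 10398 to 11069 CPM in hypoxia + rSRGN. Fibroblast markers summed to 11851 to 13885 CPM in control and 23232 to 27208 CPM in the 6 hypoxic libraries, and the source of these transcripts was not tested. In bulk samples fewer cells of a type and less RNA per cell cannot be told apart, and the part of these shifts in the values of the stress response genes was not tested.

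The first comparison asked how the genes differed between hypoxia and control. Of the 10 genes, 9 were called higher in hypoxia and 0 lower, where 26.4% of all genes tested were called higher and 25.1% lower. Fold changes of the 9 ran from 2.13 for Trib3 to 5.10 for Gdf15. The median log2 fold change of the 10 was 1.46, against 0.05 over all genes tested. The exception was Sesn2. Every hypoxia library lay above every control library for all 10 genes, which held for 37.7% of all genes tested.

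**Figure D2:**
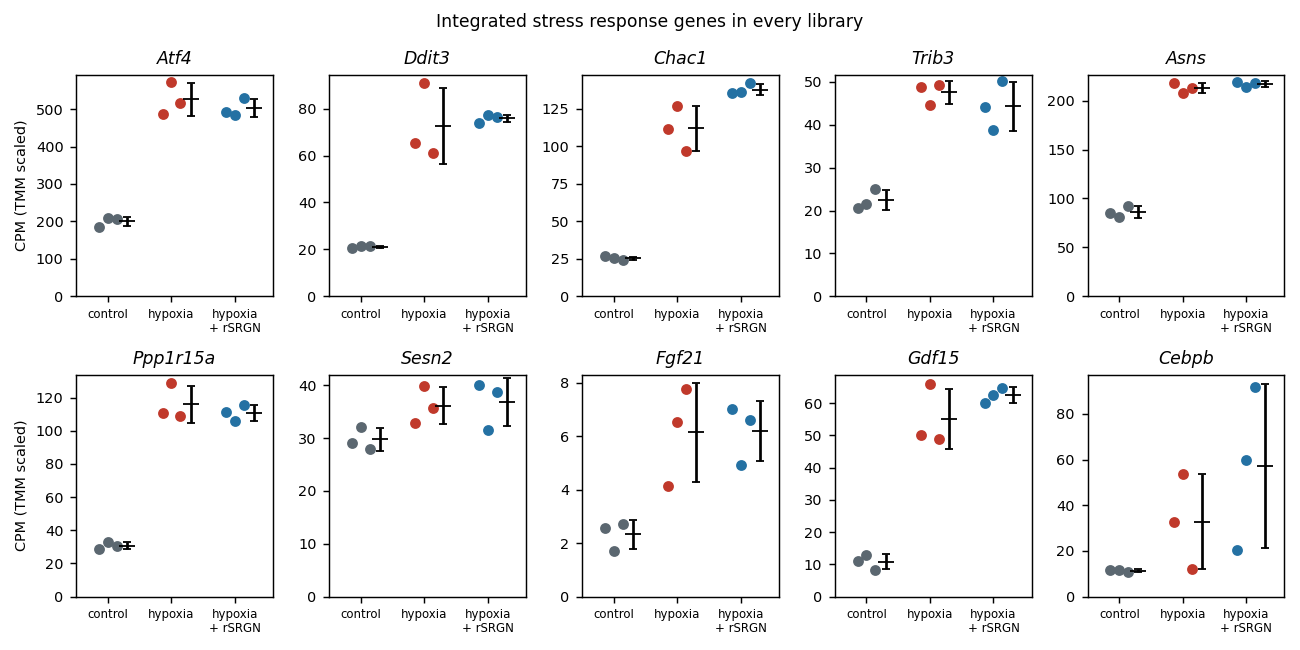
Level of each of the 10 genes in CPM (y axis, from 0) by group (x axis), with 1 point per library and the mean ± SD (n = 3) in black to the right. In all genes but Sesn2 each hypoxic library stands above every control library. The nearest libraries of the hypoxic and control sides lie at 4.14 and 2.71 CPM in Fgf21 and at 11.99 and 11.8 CPM in Cebpb. Sesn2 lies between 28.0 and 40.0 CPM throughout, and Cebpb spreads from 11.99 to 91.7 CPM among the hypoxic libraries.

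Atf4, the transcription factor at the centre of the response, was measured at 186, 208 and 208 CPM in the control libraries. In hypoxia it stood at 487, 573 and 518 CPM, and in hypoxia + rSRGN at 492, 485 and 529 CPM. The control libraries lay far below all others, and the 2 hypoxic groups overlapped. Atf4 rose 2.62-fold from control to hypoxia (log2 fold change 1.39, SE 0.08, adjusted p = 4.05e-13 by edgeR's quasi-likelihood test), and it was the most abundant of the 10 per length in each group, at 85.0 ± 5.29 CPM per kb (SD, n = 3) in control and 223 ± 18.4 in hypoxia.

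Ddit3 encodes CHOP, a transcription factor downstream of ATF4 that is linked to cell death under lasting stress. Its level was 20.4, 21.2 and 21.4 CPM in control and 65.5, 91.1 and 61.3 CPM in hypoxia. With rSRGN it was 74.1, 77.2 and 76.4 CPM, within the range of the hypoxia libraries. The rise from control to hypoxia was 3.46-fold (log2 1.79, SE 0.11, adjusted p = 3.42e-12). Ddit3 shares 68 bases of exon with Mars1 on the opposite strand, and reads were counted without regard to strand. Mars1, at 91.7 CPM in control and 121 CPM in hypoxia, differed by 0.40 on the log2 scale, and its part in the Ddit3 counts was not tested.

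Cebpb encodes C/EBPβ, a leucine zipper protein that binds composite elements together with ATF4. Control libraries held it at 11.8, 11.4 and 10.9 CPM. Hypoxia libraries held 32.4, 53.7 and 11.99 CPM, and hypoxia + rSRGN libraries 20.3, 59.6 and 91.7 CPM. Hypoxia replicate 3 was thus close to control while the remaining hypoxic libraries were above it. The fold change from control to hypoxia was 2.87 (log2 1.52, SE 0.40, adjusted p = 0.00188), and without hypoxia replicate 2 the log2 fold change was 0.97 (adjusted p = 0.0260). The highest library exceeded the lowest 4.48-fold in hypoxia and 4.53-fold in hypoxia + rSRGN, but 1.09-fold in control. Among the other 9 genes this ratio was at most 1.88 in any group. Of 9750 genes with a mean of at least 10 CPM, only Gm10095 and Kcnip2 spread at least as widely as Cebpb within the hypoxia group, and only Gm10095 did within hypoxia + rSRGN, a comparison that was made after the Cebpb values had been seen. Cebpb shares 312 bases (20.7% of its exonic length) with Tmem189 on the opposite strand, and Tmem189 held between 45.9 and 53.2 CPM in the 6 hypoxic libraries. Its part in the Cebpb counts was not tested.

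**Figure D3:**
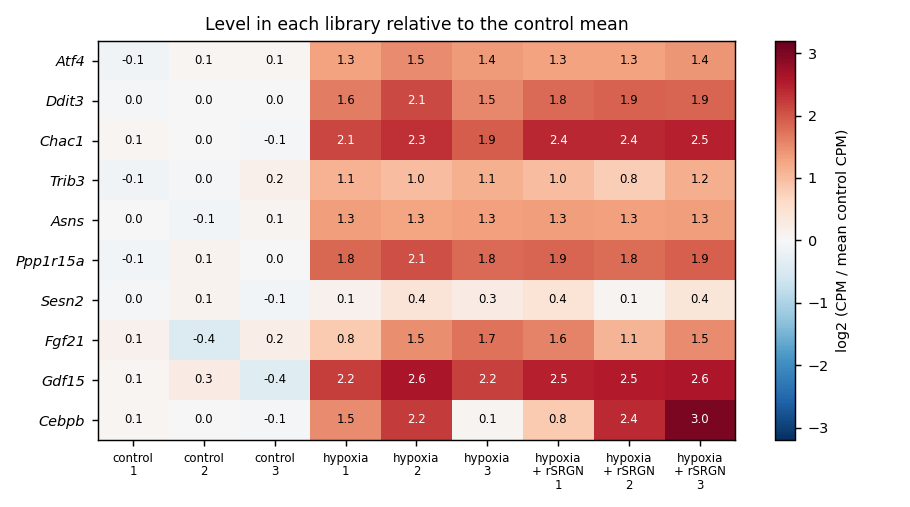
Level of each of the 10 genes (rows) in each library (columns) as the log2 ratio to the mean of the control libraries, from blue (below control) to red (above). Cebpb runs from 0.08 in hypoxia replicate 3 to 3.01 in hypoxia + rSRGN replicate 3, whereas Asns lies between 1.27 and 1.34 in all 6 hypoxic libraries.

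Chac1 and Asns act on amino acid and glutathione supply. Chac1 encodes an enzyme that breaks down glutathione, and it was measured at 26.5, 25.2 and 24.3 CPM in control and at 112, 127 and 97.1 CPM in hypoxia. It rose 4.42-fold (log2 2.14, SE 0.09, adjusted p = 2.94e-15), with no overlap between the groups. Asns encodes asparagine synthetase. Its control libraries held 85.2, 81.0 and 92.2 CPM and its hypoxia libraries 218, 208 and 213 CPM, a rise of 2.47-fold (log2 1.31, SE 0.07, adjusted p = 2.24e-13). Asns had the tightest replicates of the 10 in both hypoxic groups, with a coefficient of variation of 2.40% in hypoxia and 1.25% in hypoxia + rSRGN.

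Trib3, Ppp1r15a and Sesn2 belong to feedback and growth control. Ppp1r15a encodes GADD34, the phosphatase subunit that takes the phosphate off eIF2, and lies on chr7:45522916-45526268 on the minus strand. Its levels were 28.7, 33.1 and 30.4 CPM in control and 110.5, 129 and 109 CPM in hypoxia. It rose 3.78-fold (log2 1.92, SE 0.08, adjusted p = 6.89e-15), and the groups lay far apart. Trib3, a pseudokinase that binds ATF4 and AKT, rose from 20.5, 21.6 and 24.98 CPM to 48.8, 44.6 and 49.4 CPM. This was the smallest change among the 9 called genes, at 2.13-fold (log2 1.09, SE 0.10, adjusted p = 4.59e-09). Sesn2 encodes sestrin 2, a leucine sensor that restrains mTORC1, and stood at 29.2, 32.1 and 28.0 CPM in control and 32.9, 39.9 and 35.7 CPM in hypoxia. Its groups lay next to each other without overlapping, and its fold change of 1.21 (log2 0.28, 95% interval 0.06 to 0.50, adjusted p = 0.0215) was under the limit of 1.5. The adjusted p was above 0.05 without control replicate 1 (0.0829), control replicate 3 (0.101) or hypoxia replicate 2 (0.0976).

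Fgf21 and Gdf15 encode secreted factors that stressed cells release into the circulation. Gdf15 had 11.1, 12.9 and 8.26 CPM in control and 50.2, 65.9 and 49.0 CPM in hypoxia. It showed the largest fold change of the 10, 5.10-fold (log2 2.35, SE 0.13, adjusted p = 4.83e-13). Fgf21 was the least abundant, with 38 to 57 counts per library in control and 77 to 134 in hypoxia. Its levels were 2.56, 1.72 and 2.71 CPM in control and 4.14, 6.53 and 7.76 CPM in hypoxia, a rise of 2.63-fold (log2 1.40, SE 0.25, adjusted p = 3.24e-05). Of 5 receptor genes tested, 4 were called higher and 0 lower, where 26.4% and 25.1% of all genes tested were. The 1 not called differed by 0.19 on the log2 scale. Fgfr1 rose 1.29 on that scale (SE 0.07), Fgfr2 0.97 (SE 0.09) and Fgfr3 0.82 (SE 0.14). Klb, the co-receptor that FGF21 requires, had a mean of 0.105 CPM in control and 0.973 CPM in hypoxia, and Gfral, the GDF15 receptor of the hindbrain, had no count in any library.

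Per length, Atf4 was followed in control by Asns (31.5 ± 2.08 CPM per kb) and Chac1 (15.5 ± 0.692), and Fgf21 was last (2.45 ± 0.562). The libraries of neighbours in that order overlapped only for Trib3 and Ppp1r15a. In hypoxia the order began with Atf4, Asns (77.9 ± 1.87) and Chac1 (68.4 ± 9.13) and ended with Sesn2 (10.4 ± 1.01) and Fgf21 (6.46 ± 1.94). Here the libraries overlapped between Asns and Chac1, between Ddit3 (42.4 ± 9.40) and Ppp1r15a (39.5 ± 3.76), between Trib3 and Cebpb and between Cebpb and Sesn2. Gdf15 stood ninth of the 10 per length in control (5.81 ± 1.26) and sixth in hypoxia (29.7 ± 5.08).

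The second comparison asked whether rSRGN during hypoxia altered the same genes. None of the 10 was called, where 2.27% of all genes tested were called higher with rSRGN and 0.859% lower. The median log2 fold change of the 10 was 0.02, against -0.03 over all genes tested. At an unadjusted p below 0.05 stood 2 of the 10, Chac1 and Cebpb, where 29.4% of all genes tested did, and DESeq2 called none of the 10 either.

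Chac1 held 112, 127 and 97.1 CPM in hypoxia and 135, 136 and 142 CPM with rSRGN. Each rSRGN library lay above each hypoxia library, which held for 16.5% of all genes tested. The fold change was 1.23 (log2 0.30, 95% interval 0.13 to 0.47, adjusted p = 0.0169), so that Chac1 passed the adjusted p and missed the fold limit. It no longer passed the adjusted p without hypoxia replicate 3 (0.114) or hypoxia + rSRGN replicate 2 (0.0575) or 3 (0.0563). Without hypoxia replicate 2 the log2 fold change of Chac1 was larger, at 0.40 (adjusted p = 0.000485), and still under the fold limit. For Cebpb the log2 fold change was 0.81 with a 95% interval of 0.05 to 1.57 (adjusted p = 0.143), and the groups overlapped widely. This value rested on single libraries. Without hypoxia replicate 2 it became 1.36 (adjusted p = 0.00905) and without hypoxia + rSRGN replicate 1 it became 1.21 (adjusted p = 0.0159), both past the limits, whereas it was 0.31 without hypoxia + rSRGN replicate 3 and 0.42 without hypoxia replicate 3.

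For the other 8 genes the libraries of the hypoxic groups overlapped. Atf4 differed by -0.07 on the log2 scale (95% interval -0.22 to 0.09), Ppp1r15a by -0.07 (-0.23 to 0.10) and Asns by 0.03 (-0.12 to 0.17). Those intervals reach less far than the 1.5-fold limit in either direction. The same held for Ddit3 at 0.06 (-0.16 to 0.28), Trib3 at -0.10 (-0.31 to 0.11), Sesn2 at 0.02 (-0.19 to 0.24), Gdf15 at 0.18 (-0.06 to 0.43) and Fgf21 at 0.01 (-0.47 to 0.48). Without hypoxia replicate 2, Ddit3 (0.26, adjusted p = 0.0222) and Gdf15 (0.33, adjusted p = 0.0350) passed the adjusted p and remained under the fold limit. A p that misses the threshold does not show that rSRGN left these genes unaltered. Over the same comparison 17 of 20 cardiomyocyte markers were called higher, against 2.27% of all genes tested, with a median log2 fold change of 0.77.

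**Figure D4:**
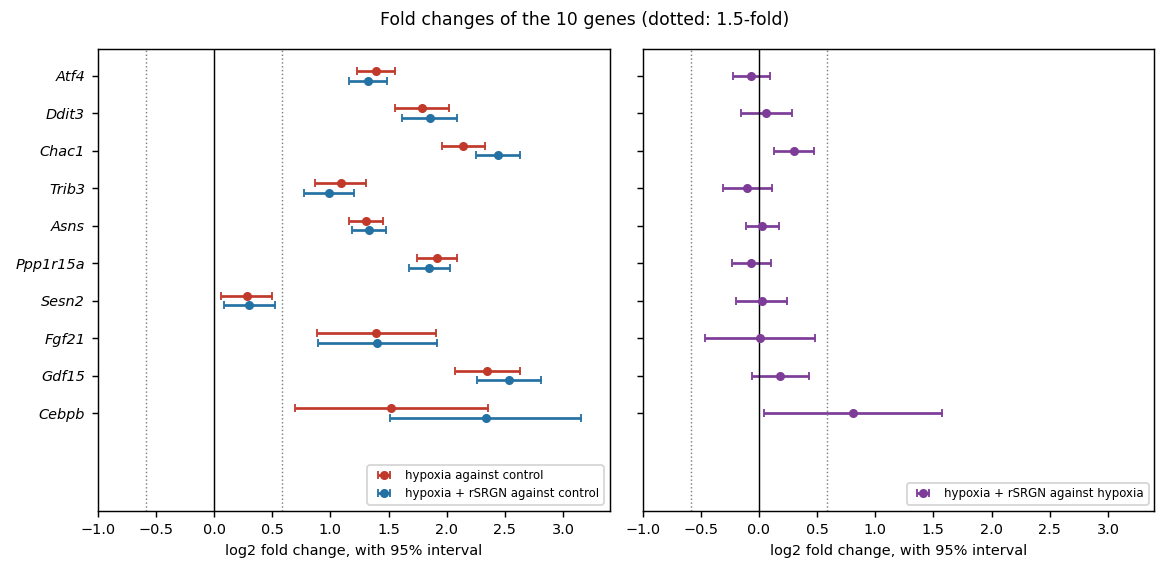
Log2 fold changes (x axis) of the 10 genes with 95% intervals, against control at left (red for hypoxia, blue for hypoxia + rSRGN) and for hypoxia + rSRGN against hypoxia at right, with dotted lines at 1.5-fold. Against control, 9 genes lie past the limit and Sesn2 lies near 0.3, while at right the points of 9 genes lie between -0.10 and 0.30 and Cebpb lies at 0.81 with the widest interval.

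The third comparison set hypoxia + rSRGN against control and shares libraries with both others. Again 9 of the 10 genes were called higher, where 24.1% of all genes tested were called higher and 24.7% lower. Every rSRGN library lay above every control library for the 9 called genes, against 36.6% of all genes tested, and the libraries of Sesn2 overlapped. The largest fold changes were 5.79 for Gdf15 (62.4 ± 2.41 CPM, SD, n = 3, against 10.8 ± 2.33), 5.44 for Chac1 (138 ± 3.69 against 25.3 ± 1.13) and 5.04 for Cebpb (57.2 ± 35.8 against 11.4 ± 0.476). Sesn2 had a log2 fold change of 0.30 (adjusted p = 0.0141), under the limit.

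The rest of the pathway was read from 136 other genes in 9 lists, of which 134 were tested. In hypoxia 66 of them were called higher and 16 lower than in control, which is 49.3% and 11.9%, against 26.4% and 25.1% of all genes tested, and their median log2 fold change was 0.56. With rSRGN against hypoxia, 1 was called higher and 0 lower, against 2.27% and 0.859% of all genes, with a median of 0.03. Against control, hypoxia + rSRGN had 64 called higher and 13 lower (47.8% and 9.7%, against 24.1% and 24.7% of all genes). The lists were chosen for function, but with earlier results of these data known, so the shares are a description only. Atf5, Nupr1, Jdp2, Dnajc3 and Herpud1 stand on more than 1 of them.

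Of the 4 kinases that start the response, none was called higher in hypoxia against control and 1 was called lower (25%, where 25.1% of all genes tested were). Eif2ak2, which encodes PKR, the sensor of double-stranded RNA, fell by 0.93 on the log2 scale (SE 0.11), from 44.6 to 23.4 CPM. Eif2ak1 (HRI, the heme sensor) differed by -0.41, Eif2ak3 (PERK, the endoplasmic reticulum sensor) by 0.41 and Eif2ak4 (GCN2, the sensor of uncharged tRNA) by 0.37, each under the fold limit. Eif2ak3 was called higher in hypoxia + rSRGN against control, at 0.59, just past the limit, a call that ended without control replicate 3 or hypoxia + rSRGN replicate 3 and with every gene kept that had at least 1 count. Of 18 genes for eIF2, its exchange factor eIF2B and the phosphatase, 4 were called higher (22.2%) and 2 lower (11.1%), both shares below the 26.4% and 25.1% of all genes tested. Eif2s1, which encodes the phosphorylated subunit eIF2α, rose by 0.74 (SE 0.07), while Ppp1cb, a catalytic subunit of the phosphatase that GADD34 directs to eIF2, fell by 1.08 (SE 0.08). Ppp1r15b, the constitutively expressed paralogue of Ppp1r15a, differed by 0.03 at a mean of 76.8 CPM in control and 78.2 CPM in hypoxia.

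A relay from stressed mitochondria reaches HRI through the protease OMA1 and its substrate DELE1. Oma1 fell by 1.12 (SE 0.13) and Dele1 fell by 1.13 (SE 0.09) on the log2 scale in hypoxia. Atf5, a factor related to ATF4 that is known for the mitochondrial stress response, rose by 1.45 (SE 0.09), from 92.8 to 253 CPM. The list of 5 counted 1 gene higher and 2 lower (20% and 40%), where 26.4% and 25.1% of all genes tested were.

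Among 22 tested leucine zipper partners and co-regulators of ATF4, 13 were called higher (59.1%) and 2 lower (9.09%), with a median of 1.03, against 26.4% and 25.1% of all genes tested. Atf3, a stress-induced repressor that lies downstream of ATF4, stood at 8.36, 11.2 and 11.1 CPM in control and 343, 430 and 365 CPM in hypoxia. No gene of the 134 rose more (log2 5.21, SE 0.11, adjusted p = 2.34e-19). It was followed by the AP-1 genes Fosl1 (2.87, SE 0.19) and Fos (2.43, SE 0.16). Nupr1, a small chromatin-associated stress protein, rose by 2.04 (SE 0.08), and Nfe2l1 and Cebpa fell by 0.65 and 0.62. The call of Cebpa ended without control replicate 2 or hypoxia replicate 1, and with scaling by library size alone neither was called.

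The amino acid genes were read in 3 lists beside Asns, in a comparison where 26.4% of all genes tested were called higher and 25.1% lower. Of 15 synthesis genes 10 were called higher (66.7%) and 1 lower (6.67%), led by Cth (2.21, SE 0.12), which makes cysteine, Psph (1.56, SE 0.10), the last step of serine synthesis, and Pck2, which rose 2.82-fold. Got1, the cytosolic aspartate aminotransferase of the malate-aspartate shuttle, fell by 1.71 (SE 0.08). Of 10 transporters 7 (70%) rose, led by Slc43a1 (1.92), Slc7a3 (1.74) and Slc3a2 (1.64), and Slc38a2, the transporter of small neutral amino acids, fell by 1.25 (SE 0.10). Of 14 tRNA synthetase and tRNA export genes 7 (50%) rose and none fell, with Sars (1.07), Cars (1.04) and Tars (1.00) first. Of the 7, Gars was called in 8 of 16 refits.

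Of 28 signalling, redox and survival targets 13 were called higher (46.4%) and 5 lower (17.9%), against 26.4% and 25.1% of all genes tested. Gadd45b rose by 2.15 (SE 0.08) and Gadd45a by 1.84 (SE 0.12), both growth arrest genes. Ddit4, which encodes the mTORC1 inhibitor REDD1, fell by 1.08 (SE 0.10), from 83.8 to 39.7 CPM, and the sestrin genes Sesn1 and Sesn3 fell by 1.78 and 1.58 where Sesn2 was not called. Bcl2l11, which encodes the death protein BIM, fell by 1.91 (SE 0.12). Of 23 endoplasmic reticulum genes of the ATF6 and XBP1 arms, which answer unfolded protein beside the PERK branch, 14 rose (60.9%) and 2 fell (8.70%), with a median of 0.63, against 26.4% and 25.1% of all genes tested. Of the 14, Dnajb11, Edem1, Hspa5, Hyou1 and Syvn1 each lost the call in at least 1 of 16 refits. Sec61b (1.46), Creld2 (1.40) and Pdia3 (1.31) led, Atf6 fell by 0.96 and Sel1l fell by 0.78. Hspa5, the chaperone BiP, rose by 0.65 (SE 0.08) and was under the fold limit without hypoxia replicate 2, at 0.56.

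**Figure D5:**
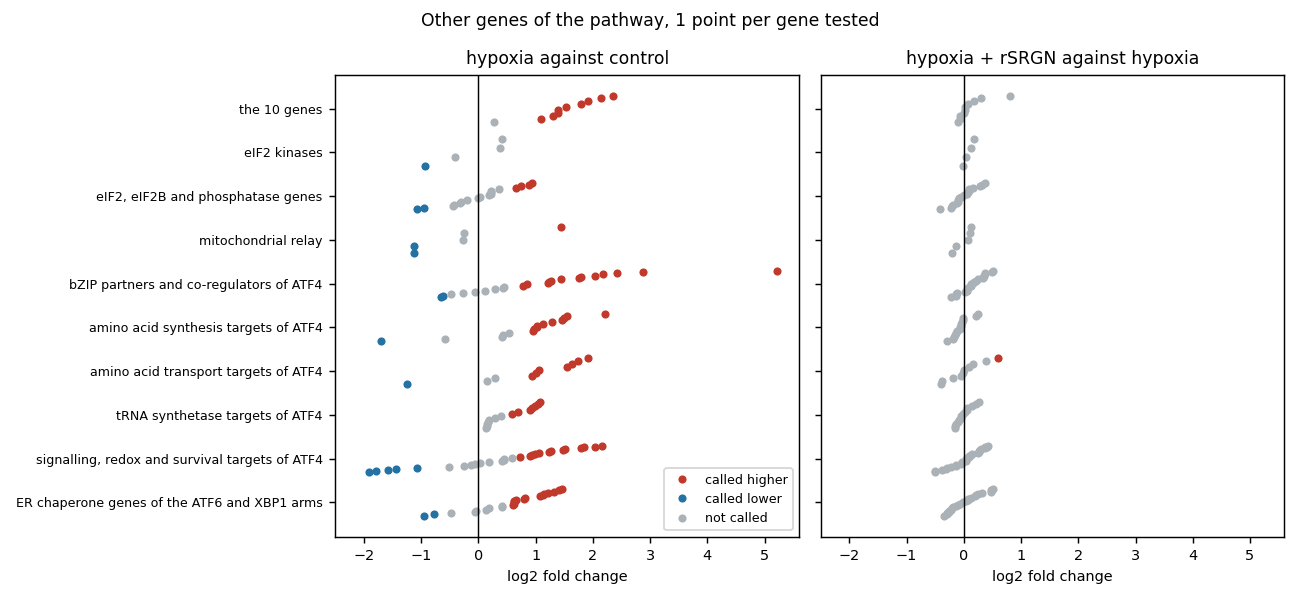
Log2 fold change (x axis) of each tested gene of the pathway by list (rows), for hypoxia against control at left and hypoxia + rSRGN against hypoxia at right, with genes called higher in red, called lower in blue and not called in grey. Called genes fill the left panel, with Atf3 farthest at 5.21, and the only called gene at right is Slc7a1 at 0.60.

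With rSRGN, the 1 pathway gene called was Slc7a1, a carrier of cationic amino acids. It held 149, 155 and 116 CPM in hypoxia and 215, 217 and 203 CPM with rSRGN, and the groups did not overlap. The fold change was 0.60 on the log2 scale (SE 0.09, adjusted p = 0.000156), just past the limit, and it fell under the limit with scaling by library size alone (0.58), without hypoxia replicate 3 (0.48) and without hypoxia + rSRGN replicate 1 (0.58) or 2 (0.58). Against control, Slc7a1 differed by 0.16 in hypoxia and rose by 0.75 with rSRGN. Atf3 differed by 0.33 between the hypoxic groups, at 493, 454 and 478 CPM with rSRGN (adjusted p = 0.0154), and Ddit4 by -0.51 (adjusted p = 0.00148), and both missed the fold limit.

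The genes whose levels followed Atf4 most closely over the 9 libraries, among 14247 genes with a mean of at least 1 CPM, were Atxn2l, Ltbp3, Plod3, H2-D1 and Clip3, with Pearson correlations of log2 CPM of 0.998. For Ddit3 they were Prr18, AI506816, Nfkbiz, Ppt1 and Igf2bp2, at 0.997 to 0.998. The 9 points share their libraries and fall into control and hypoxic groups, and the difference between those groups enters every one of these values.

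Markers of cells other than cardiomyocytes are given beside these values. In hypoxia all 20 cardiomyocyte markers were called lower than in control (median log2 fold change -3.59), 10 of 12 fibroblast markers higher, 6 of 8 endothelial markers lower, and of 5 smooth muscle markers 1 higher and 1 lower, where 26.4% of all genes tested were called higher and 25.1% lower. Of 11 macrophage markers 9 were lower and 1, Cx3cr1, was higher, at a mean of 0.285 CPM in control and 114 CPM in hypoxia. Each marker of these lists had counts in at least 1 library. Their part in the rise of the stress response genes was not tested.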

How the data were processed

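RNA-seq was measured in 9 poly(A) libraries from cultured NMVMs (Illumina NovaSeq), grouped by their labels. The authors deposited raw fragment counts per gene, made with featureCounts 2.0.1 on exons of GENCODE release M25 (GRCm38) without a strand option per the file headers, so genes that overlap on opposite strands are uncertain. The submitters' processing notes name HISAT2 and mm10. All count columns were used.

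Here, edgeR 4.0.16 (R 4.3.3) was run on these counts. Low genes were removed by filterByExpr, libraries were scaled by TMM, and 1 model with the 3 group means was fitted to the 9 libraries. The quasi-likelihood test gave p-values, which were adjusted by the Benjamini-Hochberg method over all genes tested. SEs were taken from the log2 fold change and F. The step was tested on simulated data. Alternatives were DESeq2 1.42.0, RLE scaling, library size alone, other count filters, no fold limit, 2-group fits, a replicate block, and fits without 1 library each. Replicates differed by more than sampling noise (chi-square per degree of freedom 3.63 to 13.1), so all were kept.

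The members and lists were chosen with earlier results of these data known. Named beside the 10 genes are fixed pathway genes, up to 3 called genes with the largest rise and fall of each list with a mean of at least 1 CPM, and the 5 genes most correlated with Atf4 and Ddit3. Kcnip2, Gm10095, Cx3cr1 and the genes sharing exons with a member were named after their values were seen. Figures were drawn with matplotlib 3.10.9. The upstream frames of 1 of the 10 genes are not reported here.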

Additional observations from a re-analysis of the deposited data

How the results depend on the processing

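Under 16 refits the log2 fold changes of all 10 genes kept their direction and stayed called or not called, by both limits together, in hypoxia against control and in hypoxia + rSRGN against control (160 of 160 values each). In hypoxia + rSRGN against hypoxia 146 of 160 did. By the adjusted p alone Sesn2, under the fold limit throughout, rose above 0.05 in 4 refits against control in hypoxia (0.0666 to 0.101) and in 4 with rSRGN (0.0513 to 0.0830), and Chac1 did in 3 of hypoxia + rSRGN against hypoxia (0.0563 to 0.114), while Ddit3 (0.0222) and Gdf15 (0.0350) passed it there without hypoxia replicate 2. Of the rest, 3 were Cebpb, which passed both limits without hypoxia replicate 2, without hypoxia + rSRGN replicate 1, and with every gene kept that had at least 1 count (0.83, adjusted p = 1.21e-13). With that filter its adjusted p in hypoxia against control fell too, to 1.02e-38 from 0.00188. These p-values are therefore not comparable with those of the other refits, and DESeq2 gave Cebpb an adjusted p of 0.402 with rSRGN against hypoxia. The other 11 changed sign near 0, for Fgf21 with library size alone (-0.0137) and otherwise with a library left out, where the ranges were -0.213 to 0.213 for Fgf21, -0.0430 to 0.261 for Ddit3, -0.0409 to 0.124 for Sesn2, -0.118 to 0.00142 for Atf4 and -0.108 to 0.0167 for Ppp1r15a. The cause was not tested. In that comparison the count of the 10 genes called was 1 with no fold limit (Chac1), 1 with the filter of at least 1 count (Cebpb) and 0 to 1 with a library left out. All genes called were 525, 2790 with no fold limit and 321 (without hypoxia replicate 3) to 699 (without hypoxia replicate 2) with a library left out. Other pathway genes called were 32 with no fold limit, 0 with library size alone and 0 to 4 with a library left out (4 without hypoxia replicate 2, 2 without hypoxia replicate 1).

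Samples with the same replicate number did not deviate together (correlations -0.07 to 0.06). Over 3 libraries per group this cannot show whether the numbers mark a shared isolation. With the replicate block 8550, 495 and 8096 genes were called in the 3 comparisons, against 8644, 525 and 8183 without it, and 9, 0 and 9 of the 10 genes. Of the 82 other pathway genes called in hypoxia against control, 73 were called under every refit, 9 (Cbs, Cebpa, Dnajb11, Edem1, Gars, Hspa5, Hyou1, Nfe2l1 and Syvn1) lost the call under at least 1, and 0 changed direction. DESeq2 gave no adjusted p for 3252 genes in hypoxia + rSRGN against hypoxia. Fgf21 had the fewest counts of the 10 genes, at 38 to 134 per library.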
